A study of Mus musculus with 8 samples.

Results

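Genes with known roles in endothelial cells, the cells that line blood vessels, were followed at the gene level in Oxford Nanopore Technologies (ONT) long-read libraries of differentiating mouse embryonic stem cells (ESCs). The genes were Plvap, Pecam1, Kdr, Flt1, Cdh5, Tek, Eng, Gata2, Emcn and Esam. They were chosen by symbol, and all 10 were found among the 24421 genes in the count data. All cells were of R1, a single mouse ESC line. The Undiff group was collected before differentiation. The Day4 group consisted of embryoid bodies grown for 4 days and then given retinoic acid (RA), which drives ESCs to differentiate, over a further 4 days. The dose of RA was 2 µM in the series' design and in the study's methods and 2 mM in the sample protocols. The sample labels give embryoid bodies as the tissue of every library and also apply this term to Undiff, whereas the methods describe Undiff as ESCs kept in medium with leukaemia inhibitory factor. Each state had 2 replicates, from cultures that the methods describe as grown and treated separately. Polyadenylated RNA was sequenced with the Direct RNA kit, in which the RNA strand itself is read from 500 ng of input, and with the cDNA kit, in which 50 ng of RNA is copied and amplified first. This gave 8 libraries in 4 groups of 2.

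Endothelial cells arise from mesoderm, in close relation to the first blood cells. Vascular endothelial growth factor (VEGF) acts on them through the receptors encoded by Kdr and Flt1, and angiopoietins act through the receptor encoded by Tek. Cell contacts are held by VE-cadherin, the product of Cdh5, and by adhesion molecules such as those of Pecam1 and Esam. Several of these genes are not restricted to vessels. Pecam1 is also expressed by pluripotent mouse cells, Kdr marks early mesoderm, and Gata2 acts in blood progenitors.

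The list was drawn up with results of these libraries known, among them the change of Plvap between states on each platform. The values of the 10 genes between states and between platforms are therefore given as descriptions without p-values, and nothing is inferred from how many of them were called. Levels are given as CPM, reads per 1e6 reads on genes. Libraries held between 283461 and 907489 reads on genes with Direct RNA and between 948657 and 2088592 with cDNA. A floor of 3 reads per library corresponded to between 1.44 and 10.6 CPM, and intervals of a single library are 95% Wilson intervals, which cover counting error only. In RNA of whole cultures, fewer cells of a type and less RNA per cell cannot be told apart.

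All of the 10 genes were low in every library. The highest level of any of them was 115 CPM, for Pecam1 in Direct RNA Undiff replicate 1. Summed over the 10 genes, the Direct RNA libraries held 241 and 133 CPM in Undiff and 307 and 373 CPM at Day4. The cDNA libraries held 62.2 and 106 CPM in Undiff and 193 and 236 CPM at Day4. Both Day4 sums lay above both Undiff sums on each platform. The gene with the most reads also differed between the groups. Pecam1 held between 31.5% and 50.8% of the reads of the 10 genes in the 4 Undiff libraries, and Plvap led in Direct RNA Day4 with 32.2% and 21.8%. Gata2 led in cDNA Day4 with 31.1% and 38.1%. The number of these genes with more than 1 read was between 4 and 6 in Undiff and between 8 and 10 at Day4.

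**Figure D1:**
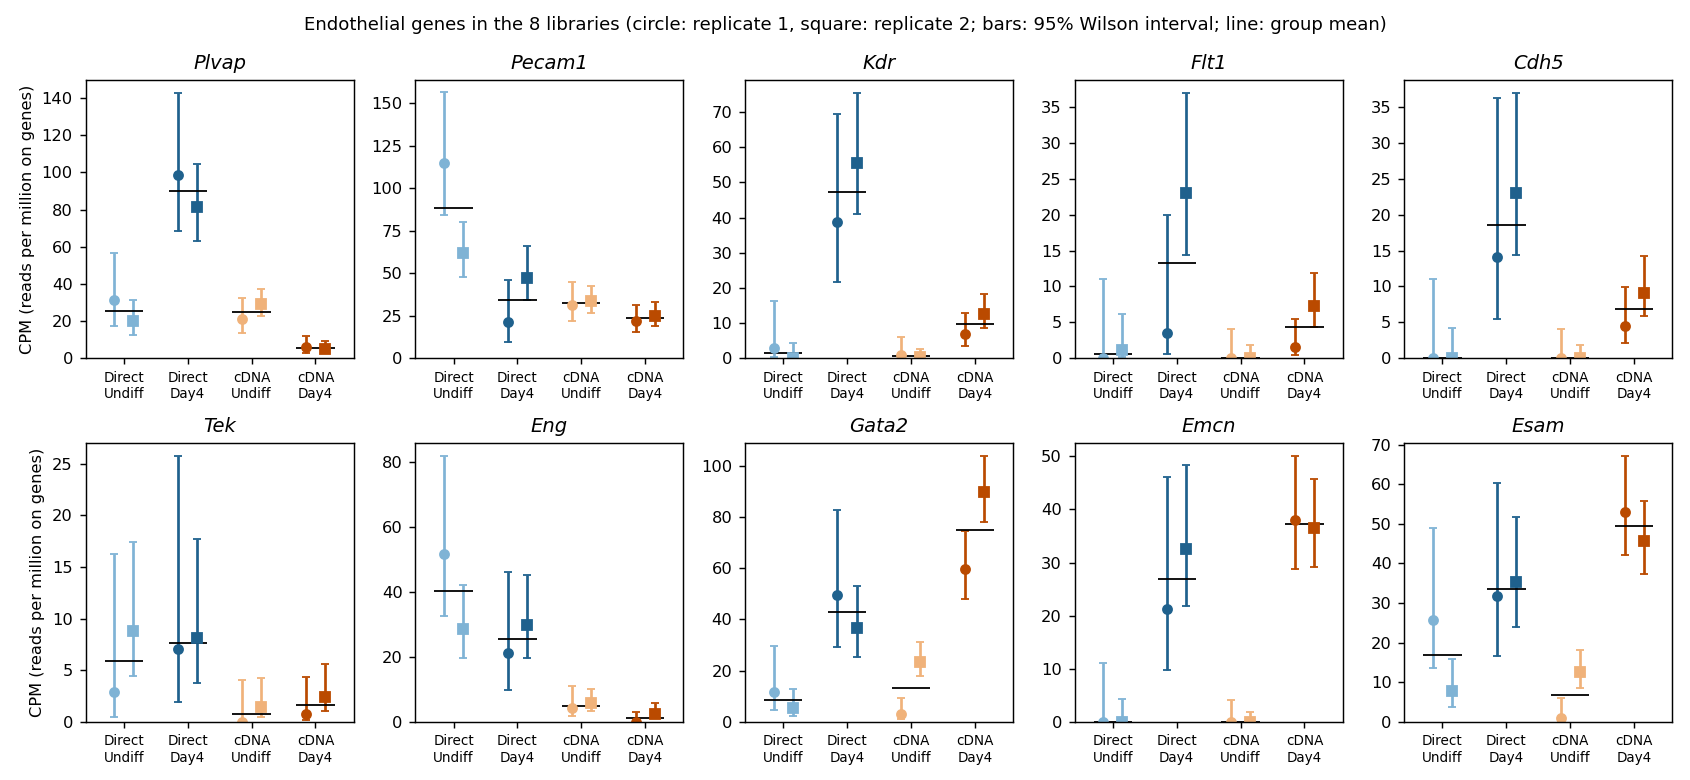
Level of each of the 10 genes in the 8 libraries, in CPM on a linear axis that differs between panels. Points are single libraries with their 95% Wilson interval and lines are group means of 2 libraries. Plvap was highest in Direct RNA Day4 (98.8 and 81.3 CPM) and lowest in cDNA Day4 (6.07 and 5.30 CPM), and Cdh5 and Emcn had no read in any Undiff library.

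In Direct RNA, 7 of the 10 genes had a higher level in both Day4 libraries than in both Undiff libraries, 1 had a lower level and 2 overlapped. Among the 9646 genes with a mean normalized count of at least 5 in Direct RNA, these shares were 37.3% higher and 30.3% lower. In cDNA, 6 genes were higher without overlap, 3 were lower and 1 overlapped, against 43.1% and 23.2% of 10271 genes. A mean count of at least 5 was reached by 7 of the 10 genes in Direct RNA and by 6 in cDNA. Flt1, Cdh5 and Tek were under it on both platforms and Eng was under it in cDNA. These genes are counted among the 10, whereas the shares of all genes leave such genes out. The study's methods set a DESeq2 adjusted p-value up to 0.05, a log2 change of 1 or more and a mean of at least 5. By these thresholds, the calls in Direct RNA were Kdr and Emcn, both higher at Day4. In cDNA they were Gata2, Emcn and Esam, higher, and Plvap, lower. Cdh5 in Direct RNA missed the mean alone. In all, 17.2% of the genes in Direct RNA and 17.9% in cDNA were called. With single libraries left out, Emcn in Direct RNA and Plvap in cDNA were not called in any of the 4 fits of their platform. Kdr was not called without Direct RNA Day4 replicate 2 or Undiff replicate 2, and Gata2 and Esam were called without cDNA Undiff replicate 2 only. Emcn in cDNA was called in these 4 fits, and with the replicate number as a block it was not (1.73 on the log2 scale, against 6.19). The block also ended the calls of Emcn in Direct RNA (3.72) and of Plvap (-2.22) and Esam (2.38) in cDNA. Kdr in Direct RNA and Gata2 in cDNA stayed called with it.

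Plvap (ENSMUSG00000034845.6, GRCm38 chromosome 8, 71497765 to 71511752, minus strand, 6 exons) encodes the protein of the diaphragms that span caveolae and fenestrae of endothelial cells. In Direct RNA it had 11 and 18 reads in Undiff (31.6 and 19.8 CPM) and 28 and 60 reads at Day4 (98.8 and 81.3 CPM). In cDNA it had 20 and 61 reads in Undiff (21.1 and 29.2 CPM) and 8 and 11 reads at Day4 (6.07 and 5.30 CPM). Plvap was thus higher at Day4 in both Direct RNA libraries and lower at Day4 in both cDNA libraries, without overlap on either platform. The group means were 25.7 ± 8.30 CPM (SD, n = 2) and 90.1 ± 12.3 CPM in Direct RNA and 25.1 ± 5.74 CPM and 5.68 ± 0.547 CPM in cDNA. Between the platforms, the libraries of Plvap overlapped in Undiff and were far apart at Day4. Over the pooled reads of each group, the ratio of Day4 to Undiff was 3.73 (95% exact counting interval 2.43 to 5.89) in Direct RNA and 0.210 (0.120 to 0.349) in cDNA. The shrunken log2 fold changes were 1.66 (SE 0.61) and -2.33 (SE 0.73). In a separate fit over all 8 libraries without shrinkage, the interaction of platform and state was -4.24 (SE 0.93). The change in Direct RNA missed the thresholds in the DESeq2 fit made here. It was called higher with edgeR (1.76), with the DESeq2 defaults (1.75) and with at least 10 reads in each library (1.63). A block on the replicate number (1.59) and TMM size factors (1.67) gave no call for this change. Leaving out single Direct RNA libraries moved it to between 1.28 and 1.78.

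Few genes had this order. Of the 8720 genes that reached a mean of 5 on each platform, 38 (0.436%) were higher at Day4 in Direct RNA and lower in cDNA without overlap, and Plvap, which was chosen for this pattern, is among them. The opposite order was found for 106 genes (1.22%). Among genes of the other lists that reached this mean on each platform, Hhex and Des, chosen after their values were seen, had the same order as Plvap. Their log2 fold changes were 0.76 and -0.94 for Hhex, an endothelial and endodermal transcription factor, and 2.05 and -0.82 for Des, the muscle filament desmin. A total of 2 of 17267 genes (0.0116%) had a called difference between platforms in the change between states, and Plvap was the single member of the list. With TMM factors in place of the DESeq2 size factors the interaction of Plvap was -4.13 and was not called, and with each of the 8 libraries left out in turn it lay between -4.49 and -3.92 and was not called. No exon of Plvap overlapped an exon of another gene in GENCODE.

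The receptors were described next. Kdr (ENSMUSG00000062960.10, chromosome 5, 75932827 to 75978458, minus strand), the main signalling receptor for VEGF, had 1 and 0 reads in Direct RNA Undiff and 11 and 41 reads at Day4 (38.8 and 55.6 CPM). The cDNA libraries had 1 read in each Undiff library and 9 and 26 reads at Day4 (6.83 and 12.5 CPM). Both Day4 libraries lay above both Undiff libraries on each platform, and the Day4 level in Direct RNA, 47.2 ± 11.9 CPM (SD, n = 2), lay above that in cDNA, 9.67 ± 4.02 CPM, without overlap. The ratio of pooled reads was 64.0 (exact counting interval 10.985 to 2574) in Direct RNA and 15.7 (4.02 to 134) in cDNA. With so few Undiff reads the size of the ratio is not well determined.

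Flt1 (ENSMUSG00000029648.13, chromosome 5, 147561604 to 147726011, minus strand), a VEGF receptor that can also bind and hold back the ligand, had 0 and 1 reads in Direct RNA Undiff and 1 and 17 reads at Day4 (3.53 and 23.0 CPM). In cDNA it had no read in Undiff and 2 and 15 reads at Day4 (1.52 and 7.22 CPM). Flt1 therefore rested on replicate 2 of Day4 on both platforms, since the other Day4 libraries were at or under the floor of 3 reads. In Direct RNA, Undiff replicate 2 and Day4 replicate 1 held 1 read each, so their order in CPM came from depth alone. In cDNA the mean Day4 level was at least 1.90-fold higher, taken against the mean of the floors of both Undiff libraries, as are all such bounds. Without Direct RNA Day4 replicate 2 the log2 fold change of Flt1 in Direct RNA was 0.53, against 2.70 with all libraries.

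Tek (ENSMUSG00000006386.15, chromosome 4, 94739289 to 94874976, plus strand), the angiopoietin receptor, had 1 and 8 reads in Direct RNA Undiff and 2 and 6 reads at Day4. In cDNA it had 0 and 3 reads in Undiff and 1 and 5 reads at Day4. The states overlapped on both platforms. The ratio of pooled reads was 1.09 (exact counting interval 0.367 to 3.19) in Direct RNA and 1.79 (0.382 to 11.1) in cDNA. These intervals cover counting error only, and replicates differed by more than that over all genes.

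Eng (ENSMUSG00000026814.16, chromosome 2, 32646595 to 32682669, plus strand) encodes endoglin, a co-receptor for ligands of the transforming growth factor beta family. It had 18 and 26 reads in Direct RNA Undiff (51.7 and 28.7 CPM) and 6 and 22 reads at Day4 (21.2 and 29.8 CPM). The cDNA libraries had 4 and 12 reads in Undiff (4.22 and 5.75 CPM) and 0 and 5 reads at Day4 (0 and 2.41 CPM). Eng overlapped between states in Direct RNA and was lower in both Day4 libraries in cDNA. All 4 Direct RNA libraries lay above all 4 cDNA libraries, and the level in cDNA relative to Direct RNA was -2.58 on the log2 scale (SE 0.55) with state as covariate. The last 61 bases of Eng, chromosome 2, 32682609 to 32682669, overlap an exon of Fpgs on the minus strand in GENCODE, the only exon overlap of the 10 genes. The methods name Direct RNA as counted by strand, and for cDNA they state counting without strand for exons but give no setting for genes. Reads that fell on more than 1 gene were set aside, and these were 2.16% to 2.33% of the reads on genes or set aside in Direct RNA, and 7.65% to 8.45% in cDNA. Fpgs was lower in cDNA as well, with between 7.06 and 40.2 CPM in Direct RNA and between 0 and 6.32 CPM in cDNA. The part of this overlap in the level of Eng was not tested.

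Of the 10 genes, 6 had a promoter in the RefSeq sequences used (GRCm38.p6), and Plvap, Pecam1, Cdh5 and Esam had none there. The 250 bases before the start are shown, 5′ to 3′ on the gene's strand, for the receptors Kdr and Flt1 and for Emcn, which all had at most 1 read in any Undiff library and were higher at Day4 on both platforms, and for Eng, which was not. Capitals mark GGAA on either strand, the core of sites bound by ETS factors, a family with several members that act in endothelial cells. The sequences are chr5:75978456-75978705 for Kdr and chr5:147726012-147726261 for Flt1, both on the minus strand, and chr3:137340828-137341077 for Emcn and chr2:32646345-32646594 for Eng, both on the plus strand.
Kdr: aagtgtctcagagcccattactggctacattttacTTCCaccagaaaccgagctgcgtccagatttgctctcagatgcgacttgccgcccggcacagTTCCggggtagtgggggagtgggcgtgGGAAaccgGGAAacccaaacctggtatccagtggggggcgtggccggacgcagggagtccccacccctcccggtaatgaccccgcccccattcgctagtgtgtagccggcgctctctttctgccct
Flt1: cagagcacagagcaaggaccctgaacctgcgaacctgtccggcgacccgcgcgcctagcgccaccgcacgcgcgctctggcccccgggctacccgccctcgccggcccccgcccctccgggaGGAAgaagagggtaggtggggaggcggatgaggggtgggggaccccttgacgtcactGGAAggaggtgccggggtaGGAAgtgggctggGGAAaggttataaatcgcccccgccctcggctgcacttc
Emcn: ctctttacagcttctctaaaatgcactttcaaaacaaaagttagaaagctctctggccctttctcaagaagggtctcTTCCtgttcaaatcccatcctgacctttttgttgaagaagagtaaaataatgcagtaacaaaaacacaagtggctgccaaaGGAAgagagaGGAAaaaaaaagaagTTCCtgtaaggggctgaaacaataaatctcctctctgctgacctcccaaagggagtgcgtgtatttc
Eng: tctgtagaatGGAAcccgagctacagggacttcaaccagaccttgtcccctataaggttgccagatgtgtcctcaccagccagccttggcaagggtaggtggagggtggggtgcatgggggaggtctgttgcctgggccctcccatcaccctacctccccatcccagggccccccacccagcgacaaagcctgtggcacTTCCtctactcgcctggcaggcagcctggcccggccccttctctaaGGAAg
GGAA was found 4 times in each of Kdr, Flt1 and Emcn and 3 times in Eng, at places that overlap neither GATA nor CANNTG. Of 32851 upstream windows of the same length, 93.4% hold GGAA and the median is 3 matches, so these windows stand near the middle of all promoters. GATA on either strand was found once in Kdr and was not among the letters of the other 3 windows, against 53.6% of all windows. The palindromic CANNTG, the E-box, was found once in Kdr, Emcn and Eng, against 66.2% of all windows. These are matches of letters and not sites shown to be bound.

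Among the adhesion and surface genes, Cdh5 (ENSMUSG00000031871.9, chromosome 8, 104101625 to 104144511, plus strand), the adherens junction cadherin of endothelial cells, had no read in any of the 4 Undiff libraries. At Day4 it had 4 and 17 reads in Direct RNA (14.1 and 23.0 CPM) and 6 and 19 reads in cDNA (4.55 and 9.15 CPM). Against the mean Undiff floor, the mean level was at least 3.12-fold higher in Direct RNA and at least 2.98-fold higher in cDNA. Cdh5 was thus seen in every Day4 library and in no Undiff library.

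Emcn (ENSMUSG00000054690.17, chromosome 3, 137341067 to 137432185, plus strand) encodes endomucin, a sialomucin of the endothelial surface. It also had no read in any Undiff library. At Day4 it had 6 and 24 reads in Direct RNA (21.2 and 32.5 CPM) and 50 and 76 reads in cDNA (37.9 and 36.6 CPM). The mean was at least 4.51-fold higher than the Undiff floor in Direct RNA and at least 16.2-fold higher in cDNA. The Day4 replicates of cDNA differed by less than the width of their counting intervals, 28.8 to 50.0 and 29.2 to 45.8 CPM.

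Esam (ENSMUSG00000001946.14, chromosome 9, 37528078 to 37538319, plus strand), an adhesion molecule of endothelial tight junctions, had 9 and 7 reads in Direct RNA Undiff (25.8 and 7.71 CPM) and 9 and 26 reads at Day4 (31.8 and 35.3 CPM). In cDNA it had 1 and 26 reads in Undiff (1.05 and 12.4 CPM) and 70 and 95 reads at Day4 (53.1 and 45.7 CPM). Day4 lay above Undiff on both platforms, by a wide margin in cDNA and narrowly in Direct RNA. The ratio of pooled reads was 2.69 (exact counting interval 1.45 to 5.21) in Direct RNA and 5.47 (3.62 to 8.54) in cDNA. The size of the cDNA change depended on the Undiff replicates, with a log2 fold change of 2.33 (SE 0.73) in all libraries, 1.57 without cDNA Undiff replicate 1 and 4.21 without cDNA Undiff replicate 2. In Direct RNA it was 0.91 (SE 0.85) in all libraries, 1.57 without Undiff replicate 1 and 0.24 without Undiff replicate 2.

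Pecam1 (ENSMUSG00000020717.19, chromosome 11, 106654217 to 106750628, minus strand) encodes an adhesion molecule of endothelial cell contacts. It had 40 and 56 reads in Direct RNA Undiff (115 and 61.7 CPM) and 6 and 35 reads at Day4 (21.2 and 47.5 CPM). The cDNA libraries had 30 and 70 reads in Undiff (31.6 and 33.5 CPM) and 29 and 52 reads at Day4 (22.0 and 25.0 CPM). Pecam1 was the only one of the 10 genes that was lower in both Day4 libraries on both platforms. The ratio of pooled reads was 0.525 (exact counting interval 0.355 to 0.765) in Direct RNA and 0.725 (0.534 to 0.981) in cDNA, and the log2 fold changes were -1.29 (SE 0.62) and -0.77 (SE 0.58). Pooled reads give more weight to the deeper replicate 2, and the mean levels in Direct RNA were 88.3 ± 37.5 CPM (SD, n = 2) in Undiff and 34.3 ± 18.6 CPM at Day4. The Direct RNA change was -1.92 without Day4 replicate 2 and -0.82 without Day4 replicate 1. Neither change of Pecam1 passed the thresholds with DESeq2, and edgeR called Pecam1 lower in Direct RNA (-1.23). The order of the groups was Direct RNA Undiff, Direct RNA Day4, cDNA Undiff and cDNA Day4, and the middle groups overlapped. Markers of pluripotent cells fell between the states. Among the Day4 libraries they were higher in replicate 2, at 552 against 138 CPM in Direct RNA and 957 against 86.5 CPM in cDNA. Pecam1 was also higher in replicate 2, but its counting intervals overlapped on both platforms. They were 9.70 to 46.2 and 34.1 to 66.0 CPM in Direct RNA, and 15.3 to 31.6 and 19.1 to 32.8 CPM in cDNA. The part of pluripotent cells in the level of Pecam1 was not tested.

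Gata2 (ENSMUSG00000015053.14, chromosome 6, 88193891 to 88207032, plus strand), the transcription factor of the list, had 4 and 5 reads in Direct RNA Undiff (11.5 and 5.51 CPM) and 14 and 27 reads at Day4 (49.4 and 36.6 CPM). The cDNA libraries had 3 and 49 reads in Undiff (3.16 and 23.5 CPM) and 79 and 187 reads at Day4 (59.9 and 90.02 CPM). Day4 was higher than Undiff on both platforms without overlap, and Gata2 in cDNA Day4 was above Direct RNA Day4. The log2 fold changes were 2.09 (SE 0.86) in Direct RNA and 2.01 (SE 0.66) in cDNA. The Undiff replicates of cDNA differed by more than their counting intervals, 1.08 to 9.30 and 17.7 to 31.0 CPM, and the cDNA change was 1.27 without replicate 1 and 3.72 without replicate 2 of cDNA Undiff.

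**Figure D2:**
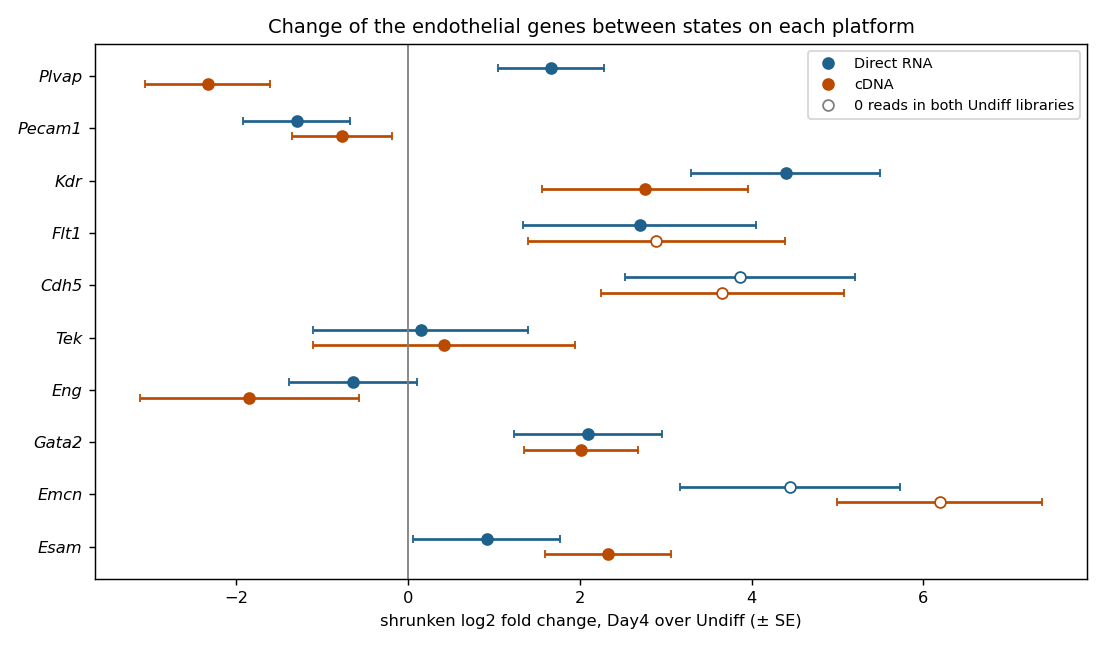
Shrunken log2 fold change of Day4 over Undiff with its standard error for each gene, in Direct RNA (blue) and cDNA (orange), n = 2 libraries per group. Open points had 0 reads in both Undiff libraries, and their fitted values are no bounds. Plvap is the gene whose changes lie far on opposite sides of 0 (1.66 and -2.33).

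The levels on the platforms were also compared with state as a covariate. DESeq2 called Eng lower in cDNA (-2.58, SE 0.55, log2 scale) and Gata2 higher (1.47, SE 0.47), and such calls were made for 51.3% of 10426 genes (24.7% higher and 26.6% lower in cDNA). Without cDNA Day4 replicate 2 or cDNA Undiff replicate 2, Gata2 was not called (1.36 and 1.08). The other 8 genes lay between -1.58 (Tek) and 0.89 (Emcn). The longest transcripts of the 10 genes had between 1865 bases (Esam) and 6895 bases (Flt1). Over the 10 genes, the difference between platforms and the transcript length had a Spearman coefficient of -0.188, a weak relation across genes that share the same 8 libraries.

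Other genes of the endothelial lineage were taken from 3 lists of 30 surface and junction genes, 22 transcription factors and 22 ligands and partner receptors, with tests adjusted over all genes. The minimum mean of 5 was reached by 37 of these 74 genes in Direct RNA and by 46 in cDNA. In Direct RNA 17 of the 37 rose and 3 fell, against 9.54% and 7.67% of all genes. In cDNA 23 of the 46 rose and 4 fell, against 8.69% and 9.24%. The medians over all genes were 0.03 and 0.00 on the log2 scale. A total of 13 genes rose on both platforms, 76.5% of the Direct RNA and 56.5% of the cDNA genes, and 3 fell on both. Genes that reach the minimum through Day4 alone are favoured in such counts, and 13 of the 17 risen genes in Direct RNA and 19 of the 23 in cDNA averaged under 5 reads in Undiff, of which 7 and 8 had no Undiff read. With a minimum of 10 reads in each library, 1 and 3 genes rose, and with the replicate block 7 and 15. The lists were also chosen with results known, so the shares are descriptions. Most genes named from the lists had the largest called changes, so their adjusted p-values describe the fit and lend no further support. Without each Direct RNA library in turn, 12 genes rose without Day4 replicate 1, 7 without Day4 replicate 2, 10 without Undiff replicate 1 and 6 without Undiff replicate 2. In cDNA these numbers were 10, 13, 18 and 9.

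Among the 30 surface and junction genes, 6 of 15 rose and 2 fell in Direct RNA and 10 of 19 rose and 2 fell in cDNA. Their median log2 fold changes were 2.20 and 2.46 (1.85 and 2.46 with genes without Undiff reads set to their lower bound). Gpihbp1, which anchors lipoprotein lipase on capillary endothelium, had no read in Undiff, 1 and 29 reads at Day4 in Direct RNA and 74 and 65 reads at Day4 in cDNA, at least 3.596-fold and 19.0-fold higher (adjusted p = 0.030 and 3.7e-06). In Direct RNA this rests on Day4 replicate 2, since replicate 1 was under the floor. Icam2 and Cd93, surface proteins of endothelial and blood cells, also had no Undiff read. In cDNA they were at least 15.6-fold and 19.0-fold higher at Day4 (adjusted p = 1.3e-05 and 3.1e-06), and in Direct RNA they did not pass the test, with 3 and 17 reads and 2 and 6 reads at Day4. Those that fell on both platforms were Jam2 and Icam1, both of which encode adhesion molecules. Direct RNA libraries held 167 ± 41.3 CPM (SD, n = 2) of Jam2 in Undiff and 2.71 ± 3.83 CPM at Day4, and cDNA libraries 112 ± 43.2 and 5.40 ± 1.21 CPM (log2 fold change -5.15 and -4.51, adjusted p = 3.1e-09 and 7.1e-13). Icam1, chosen after its values were seen, had log2 fold changes of -3.07 and -4.34.

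Of the 22 transcription factors, 5 of 10 rose and 1 fell in Direct RNA, and 7 of 13 rose and 2 fell in cDNA. The medians were 2.85 and 2.99 (2.85 and 2.34 at the bounds). Nr2f2, which acts in veins and lymphatic vessels and in many other tissues, went from 0 and 0 to 79 and 117 reads in Direct RNA and from 0 and 4 to 1321 and 3563 reads in cDNA (adjusted p = 8.9e-10 and 4.6e-35). Foxc2 was at least 28.4-fold higher in Direct RNA and 3.65-fold higher in cDNA (adjusted p = 1.1e-08 and 0.035). Hey1, a target of Notch signalling, rose from 5.41 ± 4.53 to 217 ± 61.9 CPM in Direct RNA and from 2.30 ± 1.22 to 44.6 ± 6.62 CPM in cDNA (SD, n = 2, log2 fold change 5.17 and 3.80). Ets1 rose from 2.54 ± 0.471 to 89.3 ± 28.4 CPM and from 1.29 ± 1.15 to 22.9 ± 4.43 CPM (adjusted p = 1.5e-05 and 0.0049). Etv2, the early regulator of the endothelial and blood lineages, went the other way in cDNA. The cDNA level of Etv2 was 52.4 ± 1.06 CPM in Undiff and 3.58 ± 0.299 CPM at Day4, a log2 fold change of -4.01 (SE 0.66) with an adjusted p of 1.2e-07, and in Direct RNA there were 0 and 8 reads in Undiff and 0 and 2 at Day4 (adjusted p = 0.89). Klf2, a factor of flow-exposed endothelium that pluripotent cells also express, fell on both platforms and is given after its values were seen. It had 792 ± 16.5 CPM in Undiff and 33.4 ± 12.3 CPM at Day4 in Direct RNA, and 15.5 ± 1.08 and 2.06 ± 1.85 CPM in cDNA (log2 fold change -4.49 and -2.88). Tal1, another regulator of the blood and endothelial lineages, had 1 and 0 reads in Undiff and 2 and 5 at Day4 in Direct RNA and 1, 2, 12 and 13 reads in cDNA, without passing the test (adjusted p = 0.70 and 0.31).

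Of the 22 ligands and partner receptors, 6 of 12 rose in Direct RNA and 6 of 14 in cDNA, with medians of 1.64 and 1.95 (1.64 and 1.63 at the bounds). Vegfa, the ligand of Kdr and Flt1, rose on both platforms. Its level was 8.38 ± 3.73 CPM in Undiff and 216 ± 118 CPM at Day4 in Direct RNA, and 0.479 ± 0.677 and 17.8 ± 10.2 CPM in cDNA. The log2 fold change of Vegfa was 4.199 (SE 0.63, adjusted p = 3.0e-09) and 3.79 (SE 1.12, adjusted p = 0.0099). Angpt1, the ligand of Tek, had no Undiff read and was at least 6.28-fold and 5.39-fold higher at Day4 (adjusted p = 0.0014 and 0.0075). Nrp1, a co-receptor for VEGF, had at most 1 Undiff read and 79.5 ± 22.3 and 81.4 ± 47.6 CPM at Day4 (adjusted p = 7.7e-06 and 3.3e-08). Tgfbr3, a co-receptor of the same kind as Eng, reached 53.3 ± 29.4 and 124 ± 85.0 CPM (adjusted p = 0.00019 and 3.3e-10). Of 7 caveola genes, 4 in Direct RNA and 5 in cDNA reached the minimum mean, and 1 of them rose on each platform (9.54% and 8.69% of all genes). This was Cav1, the main coat protein of caveolae (log2 fold change 4.09 and 4.02, adjusted p = 0.021 and 0.013), which went from at most 1 Undiff read to 21.4 ± 0.372 and 13.9 ± 0.661 CPM. Cav1 reached the minimum through Day4 alone. Of the others that reached it on both platforms, Cavin1 had log2 fold changes of -0.01 and 0.25, Ehd2 of 2.17 and 0.72 and Pacsin2 of 0.31 and -0.43, without a call.

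**Figure D3:**
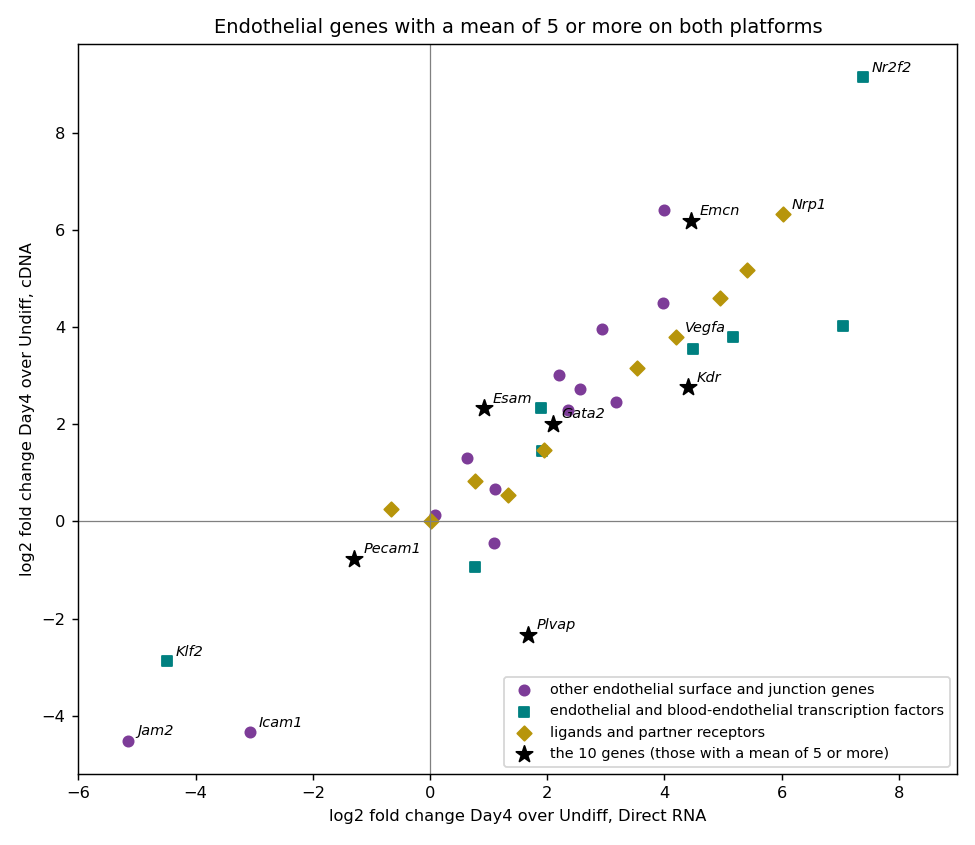
Log2 fold change of Day4 over Undiff in Direct RNA (x axis) against cDNA (y axis) for genes that reached a mean of 5 on each platform: 13 surface and junction genes, 8 transcription factors, 10 ligands and partner receptors and 6 of the 10 genes (stars). Most points lie in the upper right, Jam2, Icam1, Klf2 and the member Pecam1 lie in the lower left, and Plvap, at 1.66 and -2.33, is the lowest of the 3 points in the lower right.

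Markers of other cell types moved between the states as well, and their part in the levels of the 10 genes was not tested. The minimum mean was reached by 4 of the 13 blood markers in Direct RNA and 6 in cDNA. On each platform 3 of them rose (9.54% and 8.69% of all genes), the embryonic globins Hbb-y, Hbb-bh1 and Hba-x. These globins had no read in any Undiff library and reached the minimum through Day4 alone. The summed level of the list was between 12.9 and 28.7 CPM in Undiff and 2124 and 900 CPM at Day4 in Direct RNA and 3270.4 and 553 CPM at Day4 in cDNA. The blood sum was higher in replicate 1 of Day4 on both platforms, whereas the sum of the 10 endothelial genes was higher in replicate 2. Ptprc and Hba-a1 had no read on either platform, and Itgam had none in Direct RNA. The 10 mural markers mark the cells around vessels. Above the minimum mean, 3 of 5 rose in Direct RNA and 4 of 7 in cDNA (9.54% and 8.69% of all genes). The sum of the 10 mural markers went from between 53.8 and 164 CPM in Undiff to between 350 and 499 CPM at Day4. Abcc9 had no read on either platform, Myh11 had none in Direct RNA and Cspg4 had none in cDNA. Pdgfrb and Acta2 rose on both platforms, Des in Direct RNA and Rgs5 and Kcnj8 in cDNA. Only Day4 reads brought Pdgfrb on both platforms, and Rgs5 and Kcnj8 in cDNA, over the minimum mean. Counts of risen genes favour such genes. In cDNA, Des was lower in both Day4 libraries without a call. Tagln had log2 fold changes of -1.19 in Direct RNA and -2.02 in cDNA, with overlapping libraries and no call on either platform. Pdgfrb went to 42.4 ± 5.16 and 11.5 ± 3.43 CPM (SD, n = 2).

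Of the 10 primitive and visceral endoderm markers, 7 reached the minimum mean on each platform, of which 6 rose in Direct RNA and 5 in cDNA (9.54% and 8.69% of all genes), and the sum went from between 108 and 462 CPM to between 777 and 2078 CPM. Gata6 had no Undiff read and reached 379.5 ± 67.0 and 60.8 ± 19.5 CPM. Gata4 and Ttr also rose on both platforms, and Afp rose in Direct RNA. Ttr and Afp had no Undiff read and Gata4 at most 2 in a library. Like Gata6, they reached the minimum through Day4, which favours risen genes in this count. Amn and Lama1 were lower in both Day4 libraries on both platforms without a call (log2 fold change -2.32 and -2.41 for Amn, -0.77 and -0.55 for Lama1). The 10 pluripotent markers all fell in Direct RNA and 9 of them fell in cDNA (7.67% and 9.24% of all genes). By the mean size over both platforms, the largest changes were those of Tdgf1, Zfp42, Utf1 and Esrrb. Their sum was 11625.5 and 13970.4 CPM in Direct RNA Undiff and 138 and 552 CPM at Day4, and 21541 and 24780 CPM in cDNA Undiff and 86.5 and 957 CPM at Day4.

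**Figure D4:**
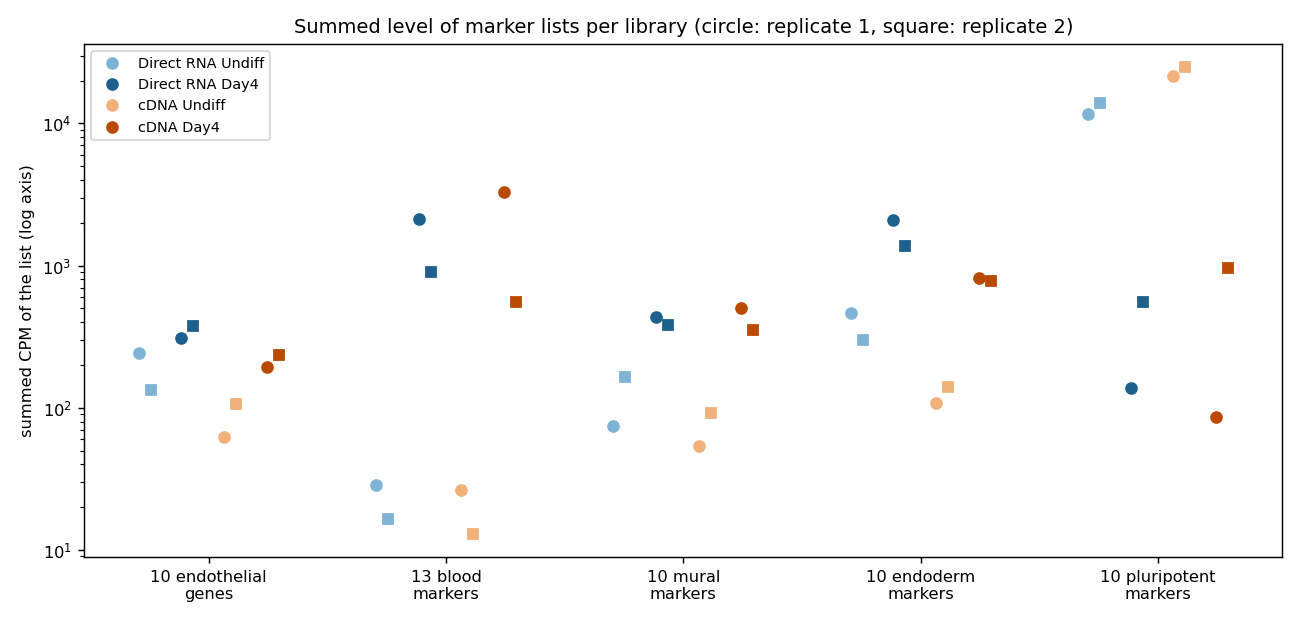
Summed CPM of the 10 endothelial genes and of 4 marker lists in each library, on a log axis. The endothelial sum differed between states far less (62.2 to 241 CPM in Undiff and 193 to 373 CPM at Day4) than the sums of blood markers or pluripotent markers, and the Day4 replicates differed most for blood and pluripotent markers.

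Genes with the most similar profiles were sought by the Pearson correlation of log2(CPM + 1) over the 8 libraries, among the 10627 genes whose mean over the libraries reached 5 reads. These values are descriptions, since the 8 points share platforms, states and depth. The profile of Plvap was closest to those of Sp3os (r = 0.920), Kctd13 (0.910) and Slc9a3r2 (0.902). Sp3os had 5 and 11 reads in Direct RNA Undiff, 8 and 44 at Day4, 13 and 23 in cDNA Undiff and 9 and 7 at Day4. Pecam1 was closest to Ascc2 (0.971), Inhbb (0.964) and Cenpn (0.961). None of these 6 genes was in the endothelial lists.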

How the data were processed

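The authors deposited, for each library, a count of reads per gene that was not normalized, made with htseq-count and the UCSC annotation from minimap2 alignments to mm10. Direct RNA was counted by strand. For cDNA the methods give counting without strand for exons, and the setting for genes is not given in the sources used here. Between 38.1% and 61.7% of the entries of a file fell in the 5 counters without a gene, which entered no test. The states were compared on each platform with DESeq2 1.42.0 in R 4.3.3 with the settings of the study's methods, though in another version of the tool (Wald test, shrunken fold changes, no Cook's cutoff and no independent filtering). Calls needed an adjusted p-value up to 0.05, a fold change of 1 or more on the log2 scale in either direction, and normalized counts that averaged 5 or more. Platform with state as covariate, and the interaction of both (adjusted p-value only, no shrinkage), were fitted over all 8 libraries. All p-values were Benjamini-Hochberg adjusted over all genes with a read. The fits were tested on simulated data. Alternatives were edgeR 4.0.16, TMM factors, DESeq2 defaults, at least 10 reads in every library, a replicate block and each library left out.

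The 10 genes and all lists were chosen with earlier results of these data known. Within lists, up to 4 called genes with the largest mean change are named, besides Vegfa, Tal1 and Etv2. Older symbols were matched for 4 genes through RefSeq, and gene models are from GENCODE vM21 (GRCm38). Replicates of a group differed beyond sampling noise (chi-square per degree of freedom between 2.68 and 14.9), so each library was kept.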

Additional observations from a re-analysis of the deposited data

Results flagged for a closer look

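The change of Plvap between states differed between the platforms. The interaction of platform and state was -4.24 on the log2 scale (SE 0.93), with Plvap higher at Day4 in both Direct RNA libraries and lower in both cDNA libraries, and it passed the adjusted threshold in DESeq2 and in edgeR. It did not pass when replicates were blocked (-4.25, and -4.25 with crossed Day4 numbers), when TMM factors were used (-4.13) or with any single library left out (-4.49 to -3.92), while its size stayed close to that value. Plvap was put on the list for this difference, so the value is a description.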

How the results depend on the processing

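With edgeR the genes called between states numbered 3257 in Direct RNA and 3348 in cDNA, the listed genes called 5 in Direct RNA, and 5 between platforms, and the interaction called 14 genes. With a minimum of 10 reads per library, 723 and 989 genes, 1 and 0 of the 10 genes, and 1 and 3 risen and 0 and 0 fallen genes of the other endothelial lists were called in Direct RNA and cDNA, with 1 interaction gene, 0 of the 10, and 1674 platform genes, 0 of the 10. The 1 gene called in Direct RNA was Plvap. With the replicate block, 843 genes, 1 of the 10 and 7 risen endothelial genes were called in Direct RNA and 1 of the 10 and 15 risen endothelial genes in cDNA. The calls lost were Emcn on both platforms (3.72 and 1.73) and Plvap (-2.22) and Esam (2.38) in cDNA. The replicate numbers were not taken to pair libraries. Deviations of same-numbered libraries correlated between states with r = 0.214 in Direct RNA and 0.500 in cDNA, and across kits with 0.124 in Undiff and -0.416 at Day4, over 1395 genes. The block left 0 of the 10 genes in the interaction, as did TMM factors (1 gene in all) and the block with crossed Day4 numbers (1 gene), chosen after the data were seen. The interaction of Gata2 turned to 0.097 with the block and 0.082 with crossed numbers, against -0.21.

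With each library left out in turn, where the lone library of a group is assumed to vary like the other groups, calls ranged from 393 to 797 genes, 0 to 1 of the 10 genes, 6 to 12 risen and 2 to 3 fallen endothelial genes in Direct RNA. In cDNA they ranged from 709 to 1020, 1 to 3, 9 to 18 and 2 to 3. Interaction calls ranged from 0 to 13 genes, with 0 of the 10, and platform calls from 4775 to 5079 genes, with 1 to 4 of the 10. The sign of Tek depended on the library left out (-0.30 to 0.67 in Direct RNA, -0.12 to 0.94 in cDNA), as did the interactions of Flt1 (-0.64 to 2.67), Cdh5 (-1.14 to 0.25), Tek (-0.67 to 2.30) and Gata2 (-0.94 to 1.70). The causes were not tested, apart from the fewer genes or libraries that some settings leave.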
